A study of Mus musculus with 60 samples.

Results

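The genes described here encode the subunits of the oxidative phosphorylation system, the 5 protein complexes of the inner mitochondrial membrane. They were taken by symbol: names starting with Nduf (letters a, b, c, s or v and a digit), Sdha to Sdhd, Uqcr, Cox4 to Cox8 followed by a, b or c (so neither Cox4i1 nor Cox4i2), Atp5, and the protein genes of the mitochondrial genome (mt-Nd, mt-Co, mt-Cytb and mt-Atp). Pseudogenes marked -ps and the muscle and brown fat isoforms Cox7a1 and Cox8b were left aside. Of 54343 symbols listed in each table, 99 matched, and 93 of these reached 1 FPKM (fragments per kilobase of transcript and 1e6 fragments) in at least 5 of the 15 libraries of at least 1 table. The 93 comprised 80 nuclear genes and all 13 protein genes of the mitochondrial genome. By complex, the nuclear genes divided into 39 for complex I, 4 for complex II, 8 for complex III, 12 for complex IV and 17 for complex V. This split follows the symbols, so Ndufa4, a subunit now placed in complex IV, and its paralogue Ndufa4l2 are counted with complex I here and in the values by complex.

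The libraries came from liver and inguinal white adipose tissue of diet-induced obese mice of a Glp1r line and a Gipr line, named for the receptors of the gut hormones GLP-1 and GIP. Each line and tissue had 3 groups of 5 libraries, and each of the 4 combinations of line and tissue has a table of its own. The vehicle group held floxed mice (Glp1rfl/fl or Giprfl/fl), the conjugate group held the same floxed genotype given mGIPR-Ab/P1, an antibody against the GIP receptor joined to a GLP-1 peptide, and the knockout group held Glp1rWnt1-/- or GiprSyn-/- mice given vehicle. All groups thus came from obese mice and every control carried floxed alleles. The knockout names refer to Wnt1, a gene of the neural crest and dorsal neural tube, and to Syn, and the sources used here say no more about the Cre drivers. Ages, doses and the duration of dosing are likewise not given in the sources used here, and no sample comes from a knockout mouse that received the conjugate. The titles call the 5 libraries of a group biological replicates.

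Liver libraries held an estimated 31.7 to 57.1 M fragments (M, 1e6) and adipose libraries 29.8 to 64.3 M. The 7 hepatocyte markers summed to at least 35650 FPKM in every liver library and to at most 1492 FPKM in adipose tissue. The 6 adipocyte markers summed to at least 11570 FPKM in every adipose library and to at most 113.5 FPKM in liver, where Lep was at 0 in all libraries of the Glp1r line. Glp1r did not exceed 0.356 FPKM in any library, so its level could not check the Glp1r knockout label in these tissues. Gipr lay at 5.02 to 7.46 FPKM in adipose vehicle libraries of the Gipr line and at 2.57 to 5.37 FPKM in the knockout, and the groups overlapped. Several sets of libraries stood apart. In the Gipr line, 5 libraries carried numbers from 20386 to 20391 while the other 25 carried 20016 to 20054. In adipose tissue, a B cell marker score above 5, the mean of log2(FPKM + 1) over 6 markers, set apart 3 libraries in each line: vehicle replicate 2 and knockout replicates 1 and 3 in the Glp1r line, and conjugate replicate 1 and knockout replicates 1 and 5 in the Gipr line.

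As background, complexes I and II pass electrons from NADH and succinate to ubiquinone, complex III passes them to cytochrome c, complex IV passes them to oxygen, and the proton gradient so built drives ATP synthase, also called complex V. Most subunits are encoded in the nucleus and imported, while a few core subunits of every complex but the second are transcribed from both strands of mitochondrial DNA as long polycistronic RNAs. Liver uses this machinery to meet the cost of glucose and lipid synthesis and to oxidise fatty acids, and white adipocytes hold fewer mitochondria than brown ones.

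Promoters of the nuclear subunits are known for sites of the nuclear respiratory factor NRF1, of ETS factors such as GABP, of YY1 and of the oestrogen-related receptors. In the RefSeq promoter table (GRCm38.p6, 250 bases before to 50 after each gene start, 300 bases in all), 66 of the 80 nuclear subunit genes were found, with 71 promoters. The NRF1 motif GCGCNNGCGC, which reads the same on either strand, was present in 19 of the 71 promoters (26.8%) and in 6.23% of all 32851 promoters. The ETS motif CCGGAAG or its reverse CTTCCGG was present in 17 (23.9%, against 8.86% of all). The YY1 motif AAGATGGCG, searched on both strands, was present in 7 (9.86%, against 1.4%), and the oestrogen-related receptor motif TCAAGGTCA or its reverse TGACCTTGA in 2 (2.82%, against 0.423%). A TATAAA box on either strand was present in 7 (9.86%, against 13.6%). The promoters of 5 genes are printed for genes that the results below turn on: the paralogues Cox6b1 and Cox6b2, which passed the test in different tissues, Atp5g1 and Atp5g3, which encode the same mature ring subunit, and Ndufa10. They lie on the minus strand of GRCm38.p6 at chr7:30626065-30626364 (Cox6b1), chr7:4753045-4753344 (Cox6b2), chr11:96075582-96075881 (Atp5g1), chr2:73911277-73911576 (Atp5g3) and chr1:92473709-92474008 (Ndufa10). Each is written 5′ to 3′ in the gene's direction, with motif matches in capitals.
Cox6b1: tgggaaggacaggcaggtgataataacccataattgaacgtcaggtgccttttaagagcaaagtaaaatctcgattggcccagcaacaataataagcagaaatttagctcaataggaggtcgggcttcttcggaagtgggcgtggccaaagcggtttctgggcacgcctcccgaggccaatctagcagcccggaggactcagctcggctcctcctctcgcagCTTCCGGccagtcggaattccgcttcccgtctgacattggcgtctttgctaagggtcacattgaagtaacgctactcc
Cox6b2: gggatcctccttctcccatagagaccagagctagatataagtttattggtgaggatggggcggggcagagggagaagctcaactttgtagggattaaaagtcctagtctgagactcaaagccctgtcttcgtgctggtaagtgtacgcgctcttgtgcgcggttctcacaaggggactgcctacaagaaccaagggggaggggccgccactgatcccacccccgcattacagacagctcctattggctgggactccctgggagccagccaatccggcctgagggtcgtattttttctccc
Atp5g1: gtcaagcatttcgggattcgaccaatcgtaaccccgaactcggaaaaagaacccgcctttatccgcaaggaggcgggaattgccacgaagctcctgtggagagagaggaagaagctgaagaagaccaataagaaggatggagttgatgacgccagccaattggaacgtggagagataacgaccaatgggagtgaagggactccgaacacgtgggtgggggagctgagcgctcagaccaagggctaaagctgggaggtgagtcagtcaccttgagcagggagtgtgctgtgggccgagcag
Atp5g3: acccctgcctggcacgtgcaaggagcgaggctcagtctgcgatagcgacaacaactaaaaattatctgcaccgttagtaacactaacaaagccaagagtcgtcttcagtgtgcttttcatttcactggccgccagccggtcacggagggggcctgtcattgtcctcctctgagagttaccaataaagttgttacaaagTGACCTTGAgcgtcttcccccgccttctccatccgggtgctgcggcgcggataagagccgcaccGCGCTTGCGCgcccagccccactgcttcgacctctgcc
Ndufa10: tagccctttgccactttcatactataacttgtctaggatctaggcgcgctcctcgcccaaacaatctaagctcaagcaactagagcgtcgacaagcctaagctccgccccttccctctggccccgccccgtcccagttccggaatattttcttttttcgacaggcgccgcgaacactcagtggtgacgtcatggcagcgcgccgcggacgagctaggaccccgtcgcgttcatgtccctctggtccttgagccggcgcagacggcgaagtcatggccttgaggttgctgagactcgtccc
The Cox6b1 promoter held 1 ETS match (CTTCCGG) and that of its paralogue Cox6b2 held no match to the 5 motifs. Atp5g3 held an oestrogen-related receptor match (TGACCTTGA) and an NRF1 match (GCGCTTGCGC), and neither Atp5g1 nor Ndufa10 held a match. A match only describes the letters in this window.

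Among nuclear subunits, levels in vehicle libraries spanned more than 2 orders of magnitude. Atp5b, the catalytic beta subunit of ATP synthase, had the highest group mean in every table: 485 and 575 FPKM in liver of the Glp1r and Gipr lines, and 751 and 733 FPKM in adipose tissue. Over all 15 libraries of a table, Ndufa4 was next in both tables of the Gipr line (409 FPKM in liver and 334 FPKM in adipose tissue). Atp5g3 was next in liver of the Glp1r line (435 FPKM) and Cox8a, a small subunit of complex IV, in adipose tissue of that line (492 FPKM). At the low end stood isoforms. Ndufa4l2, a paralogue of Ndufa4 known for its induction by hypoxia, averaged 1.23 and 1.14 FPKM in the liver tables and reached 1 FPKM in 11 and 9 of 15 libraries. Cox6b2, known as the testis isoform of Cox6b1, did not exceed 0.551 FPKM in liver and averaged 1.29 and 2.22 FPKM in the adipose tables. It was the only one of the 93 genes to pass the filter in adipose tissue and in neither liver table. Cox6a2, the muscle isoform of Cox6a1, passed in 6 libraries of the Gipr liver table and in 7 and 11 libraries of the adipose tables, and missed the filter in liver of the Glp1r line, where its maximum was 0.264 FPKM. The 6 matching symbols that passed nowhere were Cox6c2, Cox8c, Ndufb11b, Ndufa11b, Cox7b2 and Ndufs6b, with Cox8c coming closest at 1.01 FPKM in 1 library.

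The mitochondrially encoded genes stood far above the nuclear ones per kilobase. The median nuclear subunit had a vehicle mean of 100 to 124 FPKM, depending on the table. Among the mitochondrial genes the highest vehicle mean was that of mt-Co1, the catalytic core of complex IV, at 20670 to 21560 FPKM in liver and 14360 to 17450 FPKM in adipose tissue. The lowest was mt-Co2 or mt-Nd3, at 484 to 788 FPKM. Together the 13 genes took 7.57% to 14.1% of all FPKM in a liver library and 6.30% to 14.4% in an adipose library. Some mitochondrial genes share bases with a neighbour, mt-Atp8 with mt-Atp6 and mt-Nd4l with mt-Nd4, so the split of fragments within those pairs is uncertain. The same holds for nuclear subunits with near-identical processed copies.

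Levels of some subunit genes differed between liver and adipose tissue. These levels come from separate tables and are given without a test. In both lines, 12 of 80 nuclear subunits were higher in all 5 vehicle livers than in all 5 vehicle adipose libraries of the same line, and 6 of 80 were lower in all. Of all 14758 genes that passed the filter in at least 1 table, 13.2% were higher in liver in this way and 56.2% in adipose tissue. They include genes that passed only through 1 tissue, and such genes tend to be higher in that tissue. More genes passed in the adipose tables (12686 and 13604) than in the liver tables (10858 and 11201). The share of subunits was near the background for liver and below it for adipose tissue. Because the filter shapes both backgrounds, neither can be read as a result about the subunits. Atp5g1, 1 of 3 genes for the c subunit of the ATP synthase rotor ring, averaged 187 ± 13.01 FPKM in liver and 45.2 ± 2.63 FPKM in adipose tissue of the Glp1r line (SD, n = 5), a ratio of 4.15, and the ratio was 3.95 in the Gipr line. Sdhb, the iron-sulphur subunit of complex II, was 1.56 and 1.83 times as high in liver, and Ndufa6, an accessory subunit of complex I, 1.97 and 2.49 times. Ndufa4l2 ran the other way, with 1.11 ± 0.232 FPKM in liver and 12.9 ± 3.21 FPKM in adipose tissue of the Glp1r line, and 1.23 and 21.6 FPKM in the Gipr line. Ndufb3, an accessory subunit of complex I, averaged 62.3 FPKM in liver and 161 FPKM in adipose tissue of the Glp1r line. Atp5b, Atp5o (the stalk subunit OSCP) and Cox7a2l (a factor of respiratory supercomplexes) were also higher in adipose tissue in both lines. The last of the 6 was Cox6b2, which passed the filter only through adipose tissue, so the filter itself favours a higher level there. Of the 13 mitochondrial genes, mt-Cytb and mt-Atp6 were higher in liver without overlap in both lines, against the same 13.2% of all genes, and none was higher in adipose tissue. In bulk tissue, fewer cells of a type and less RNA per cell cannot be told apart.

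**Figure D1:**
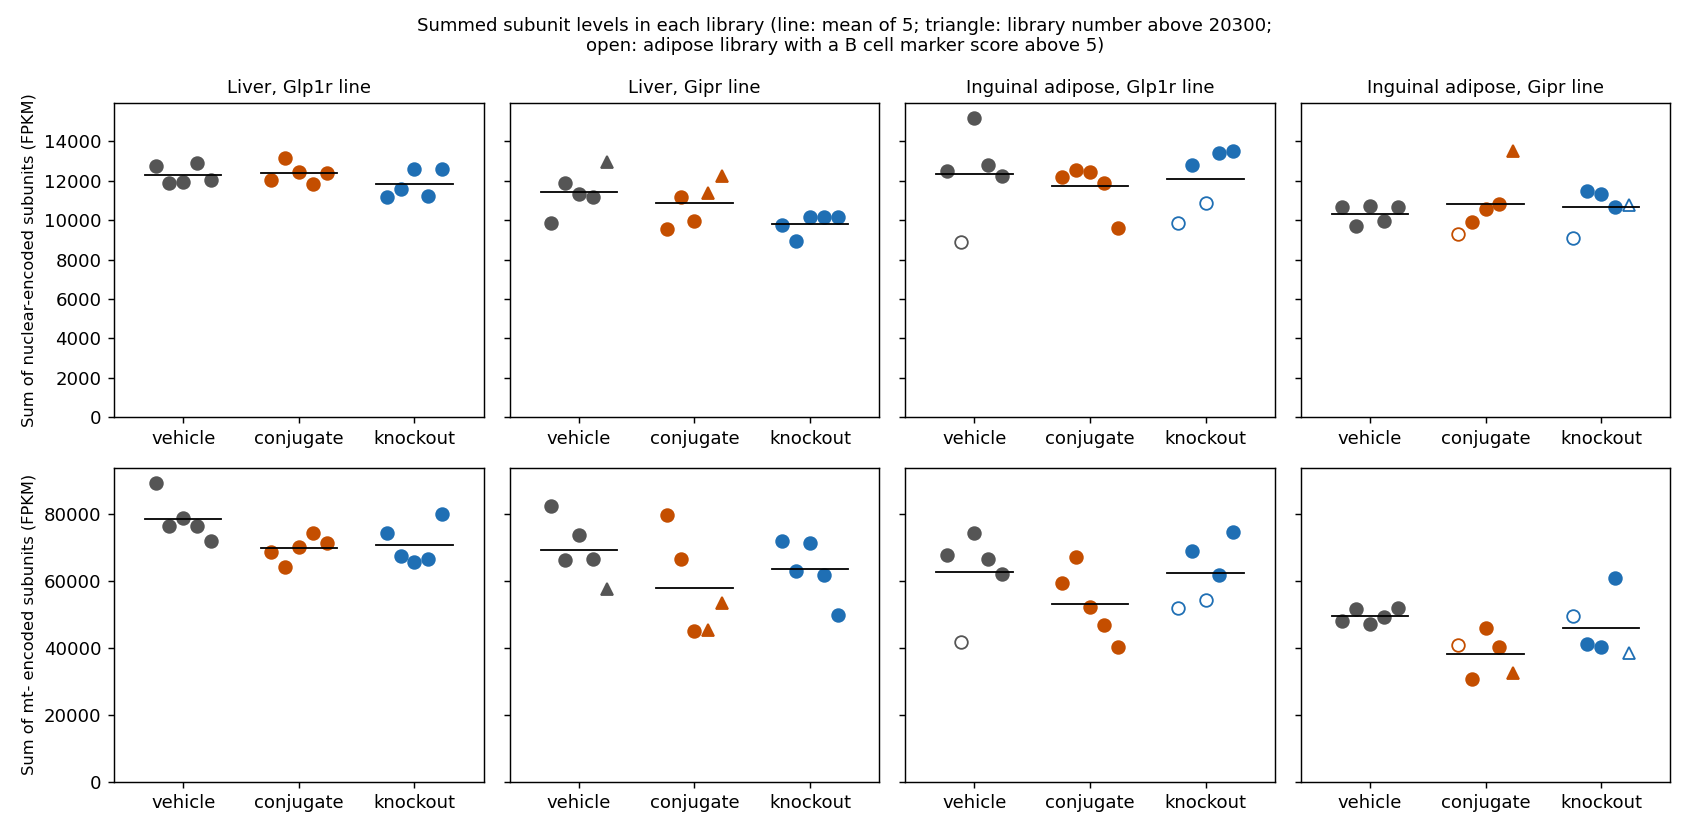
Summed FPKM of the nuclear subunits (upper row) and of the mitochondrially encoded genes (lower row) in each of the 60 libraries by table and group. Points are libraries, lines are means of 5, triangles mark Gipr-line libraries numbered 20386 to 20391 and open points mark adipose libraries with a B cell score above 5. In adipose tissue of the Gipr line the mitochondrial sums of the conjugate group (30850 to 45950 FPKM) lie below those of the vehicle group (47150 to 51870 FPKM).

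In liver of Glp1r floxed mice, the conjugate was accompanied by lower mitochondrial transcripts and 1 higher nuclear subunit. Of the 13 mitochondrial genes 3 fell and 10 did not pass, with none higher, and of the 78 nuclear subunits tested 1 rose and 77 did not pass, with none lower (limma, Benjamini-Hochberg adjusted p under 0.05 over all genes of the table). For comparison, 10.4% of the 10858 genes tested were called, 5.68% higher and 4.69% lower. The count of nuclear subunits called was thus below the background share, and 3 of 13 mitochondrial genes is above that for lower genes. The 13 mitochondrial genes took 11.8% to 14.1% of FPKM in vehicle libraries and 10.2% to 11.6% in conjugate libraries, without overlap.

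The mitochondrial genes that fell belong to 3 complexes. For mt-Nd3, a core subunit of the proton-pumping arm of complex I, the vehicle libraries held 1897, 1454, 1596, 1544 and 1724 FPKM and the conjugate libraries 1085, 1117, 1100, 1430 and 1208 FPKM. Every conjugate library was below every vehicle library, and the difference was -0.47 ± 0.12 (SE) on the log2(FPKM + 1) scale (limma, adjusted p = 0.0269). For mt-Atp6, the subunit that forms the proton path of ATP synthase with the rotor ring, vehicle libraries held 3281, 2848, 2605, 2850 and 3091 FPKM and conjugate libraries 2086, 2439, 2129, 2354 and 2512 FPKM. The groups did not overlap, at -0.35 ± 0.10 (limma, adjusted p = 0.0377). For mt-Cytb, cytochrome b, the only subunit of complex III from mitochondrial DNA, vehicle libraries held 13299, 11975, 11565, 12461 and 11077 FPKM and conjugate libraries 9371, 10695, 9898, 10307 and 10008 FPKM. These groups did not overlap either, at -0.26 ± 0.07 (limma, adjusted p = 0.0342). Among all genes tested, 9.15% had groups without overlap, 5.14% higher and 4.02% lower. The differences of the other 10 mitochondrial genes ran from -0.27 (mt-Co3) to 0.05 (mt-Co2), so 12 of 13 were negative with a median of -0.20, and the median of all genes was 0.01.

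The nuclear subunit that rose was Ndufb10, an accessory subunit in the membrane arm of complex I. Its vehicle libraries held 123, 102, 110, 115 and 121 FPKM, its conjugate libraries 134, 130, 133, 133 and 129 FPKM and its knockout libraries 107, 107, 117, 104 and 117 FPKM. All conjugate libraries were above all vehicle and knockout libraries, at 0.21 ± 0.05 against vehicle (limma, adjusted p = 0.0277). The median difference of the 78 nuclear subunits was 0.01, with 46 positive and 32 negative, and their medians by complex lay between -0.02 and 0.02. Estimated depth moved with this comparison: 31.7 to 35.5 M fragments in the conjugate libraries against 47.5 to 54.8 M in vehicle libraries, and with depth as a term no gene of the table was called. In that fit the differences were -0.37 ± 0.39 for mt-Nd3, -0.24 ± 0.32 for mt-Atp6 and -0.28 ± 0.23 for mt-Cytb, with SEs about 3 times as large, and 0.04 ± 0.17 for Ndufb10. Treatment and depth cannot be told apart here. Each of the 4 calls was also lost when some single libraries were left out, in 6 of 10 such fits for Ndufb10 (adjusted p 0.0194 to 0.0738), 4 for mt-Nd3 (0.0198 to 0.0672) and 7 each for mt-Atp6 (0.0375 to 0.0937) and mt-Cytb (0.0296 to 0.0882).

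The Glp1rWnt1-/- knockout showed no called subunit in liver. None of 78 nuclear and 13 mitochondrial genes passed in limma, where 0.0% of all 10858 genes did. At an unadjusted p under 0.05 there were 5 nuclear subunits and 3 mitochondrial genes, all lower, among 1048 genes (9.65%) in all. The smallest p belonged to mt-Nd3, with 1499, 1076, 1052, 1189 and 1590 FPKM in the knockout libraries against the vehicle values above (-0.37 ± 0.12, limma, adjusted p = 0.317), and the groups overlapped. For Sdhd, a membrane anchor of complex II, vehicle libraries held 126, 133, 125, 132 and 128 FPKM and knockout libraries 110, 123, 119, 108 and 118 FPKM (-0.15 ± 0.05, adjusted p = 0.335). Sdhd and Ndufs4, an accessory subunit of complex I, were the 2 nuclear subunits whose groups did not overlap, both lower, and 2.36% of all genes had such groups, 1.72% lower. The next mitochondrial gene, mt-Nd1, differed by -0.21 (limma, adjusted p = 0.406). Of the nuclear subunits 67 of 78 had a negative difference, with a median of -0.05 against -0.04 for all genes. With each library rescaled by the median ratio over genes, 48 of 78 were negative.

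**Figure D2:**
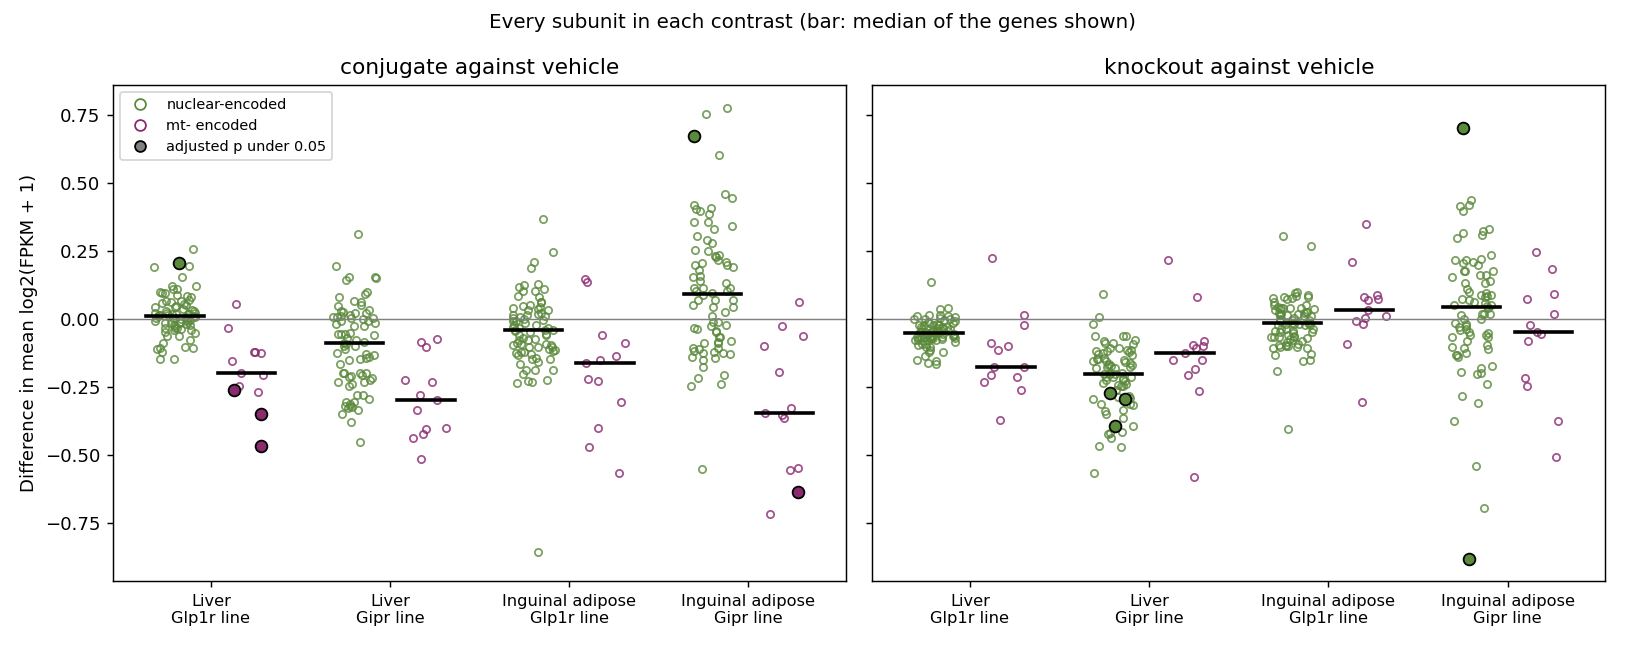
Difference in mean log2(FPKM + 1) of every subunit between the conjugate or knockout group and the vehicle group, by table, for nuclear and mitochondrially encoded genes apart. Points are genes, bars are medians of the genes shown and outlined points passed at an adjusted p under 0.05. The medians of the mitochondrial genes with the conjugate are -0.20, -0.30, -0.16 and -0.35 in the 4 tables.

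In liver of Gipr floxed mice given the conjugate, none of 79 nuclear subunits and none of 13 mitochondrial genes passed in limma, where 4.34% of 11201 genes did, 1.17% higher and 3.17% lower. At an unadjusted p under 0.05 there were 13 nuclear subunits and 3 mitochondrial genes, all lower, against 20.1% of all genes. All 13 mitochondrial differences were negative, from -0.07 (mt-Nd4l) to -0.52 (mt-Co2), with a median of -0.30 against -0.03 for all genes. The value of mt-Co2 rests on vehicle replicate 2, at 2486 FPKM with 583 to 863 FPKM in the other vehicle libraries, and was -0.15 without it. The nuclear median was -0.09, with 55 of 79 negative. Ndufa3, a small accessory subunit of complex I, was the 1 subunit whose groups did not overlap (-0.21, adjusted p = 0.187), against 3.57% of all genes lower without overlap. Within the mitochondrial set, vehicle libraries spanned 9.73% to 13.9% of FPKM and conjugate libraries 7.57% to 13.1%, so these groups overlapped.

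The 3 subunits with the smallest p in that comparison were nuclear. For Ndufs5, an accessory subunit of complex I, vehicle libraries held 98.7, 127, 115, 113 and 107 FPKM and conjugate libraries 85.8, 102, 81.7, 83.9 and 95.9 FPKM (-0.31 ± 0.09, limma, adjusted p = 0.0552). Here 1 conjugate library lay above 1 vehicle library. For Ndufa10, an accessory subunit of complex I with a fold like that of nucleoside kinases, vehicle libraries held 65.8, 71.7, 61.3, 59.6 and 64.9 FPKM and conjugate libraries 47.4, 50.5, 41.7, 51.1 and 67.3 FPKM. Of the conjugate libraries 4 were below all vehicle libraries and replicate 5 lay among them (-0.33 ± 0.11, limma, adjusted p = 0.0906). Conjugate replicate 4, at 51.1 FPKM, conjugate replicate 5 and vehicle replicate 5 are all numbered 20386 or later. Sdhc, a membrane anchor of complex II, differed by -0.25 (limma, adjusted p = 0.130). Without the 3 liver libraries numbered 20386 to 20388, Ndufa10 fell by 0.46 (adjusted p = 0.0254) and Ndufa8, another accessory subunit of complex I, by 0.50 (adjusted p = 0.0437), beside 4.5% of all genes. Without conjugate replicate 5 alone, Ndufa10 had an adjusted p of 0.00801 and Ndufs5 of 0.0352, and without vehicle replicate 1 Ndufs5 had one of 0.0451.

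In the GiprSyn-/- knockout, 3 of 79 nuclear subunits fell in liver and most of the others had a small negative difference in FPKM. None rose, 76 did not pass and none of 13 mitochondrial genes passed in limma, with none of those at an unadjusted p under 0.05. Among all 11201 genes 10.4% were called, 1.44% higher and 8.92% lower, so the called share of nuclear subunits was below the background. Of the 79 nuclear subunits 77 had a negative difference, with a median of -0.20, while for all genes the median was -0.11 with 8266 of 11201 negative. The medians by complex were -0.18 for complex I, -0.21 for II, -0.23 for III, -0.27 for IV and -0.20 for V. The mitochondrial median was -0.13 with 11 of 13 negative.

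Among the 3 that fell, Ndufa10 held 48.0, 48.9, 54.3, 49.9 and 43.7 FPKM in the knockout libraries, all below the vehicle values given above (-0.39 ± 0.11, limma, adjusted p = 0.0281). For Cox6b1, a peripheral subunit of complex IV that faces the intermembrane space, vehicle libraries held 254, 316, 276, 279 and 267 FPKM and knockout libraries 225, 218, 246, 214 and 249 FPKM. These groups did not overlap (-0.27 ± 0.08, limma, adjusted p = 0.0306). For Ndufa3 vehicle libraries held 112, 146, 118, 126 and 118 FPKM and knockout libraries 99.9, 94.1, 113, 87.4 and 110 FPKM, with 1 knockout library above 1 vehicle library (-0.29 ± 0.09, limma, adjusted p = 0.0464). Groups without overlap were found for 7 nuclear subunits, all lower: Ndufa10, Cox6b1, Atp5b, Ndufa8, Ndufs5 and the complex II subunits Sdha and Sdhd, against 10.6% of all genes lower without overlap. The 3 calls were lost in 7, 6 and 7 of 10 fits that left out 1 library (adjusted p up to 0.0661 for Ndufa10, 0.0899 for Cox6b1 and 0.127 for Ndufa3).

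This count depended on how the libraries were scaled. The FPKM of a library summed to 576400 to 603600 in vehicle and 592500 to 658500 in knockout libraries. With every library scaled to a common sum, 19 nuclear subunits fell beside 16.3% of all genes, and with a common sum over rows other than mitochondrial genes 28 fell beside 22.3%. Rescaled by the median ratio over genes, none passed, 57 of 79 were negative with a median of -0.05, and the mitochondrial median was 0.02. Under that scaling 5261 of 11201 genes were negative with a median of 0.01, and Ndufa10 differed by -0.25 (adjusted p = 0.355), Ndufa3 by -0.15 and Cox6b1 by -0.12. Summed markers of exocrine pancreas reached 4886 FPKM in vehicle, 9048 FPKM in conjugate and 3281 FPKM in knockout libraries of this table, with lows of 13.9, 43.3 and 38.3 FPKM, and with that score as a term 5 nuclear subunits fell, beside 12.6% of all genes called, 10.9% lower. In a fit of only the 2 groups 7 fell, beside 14.1% of all genes called, 12.1% lower, and without the later-numbered libraries 1 fell, beside 9.78%, 8.2% lower.

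**Figure D3:**
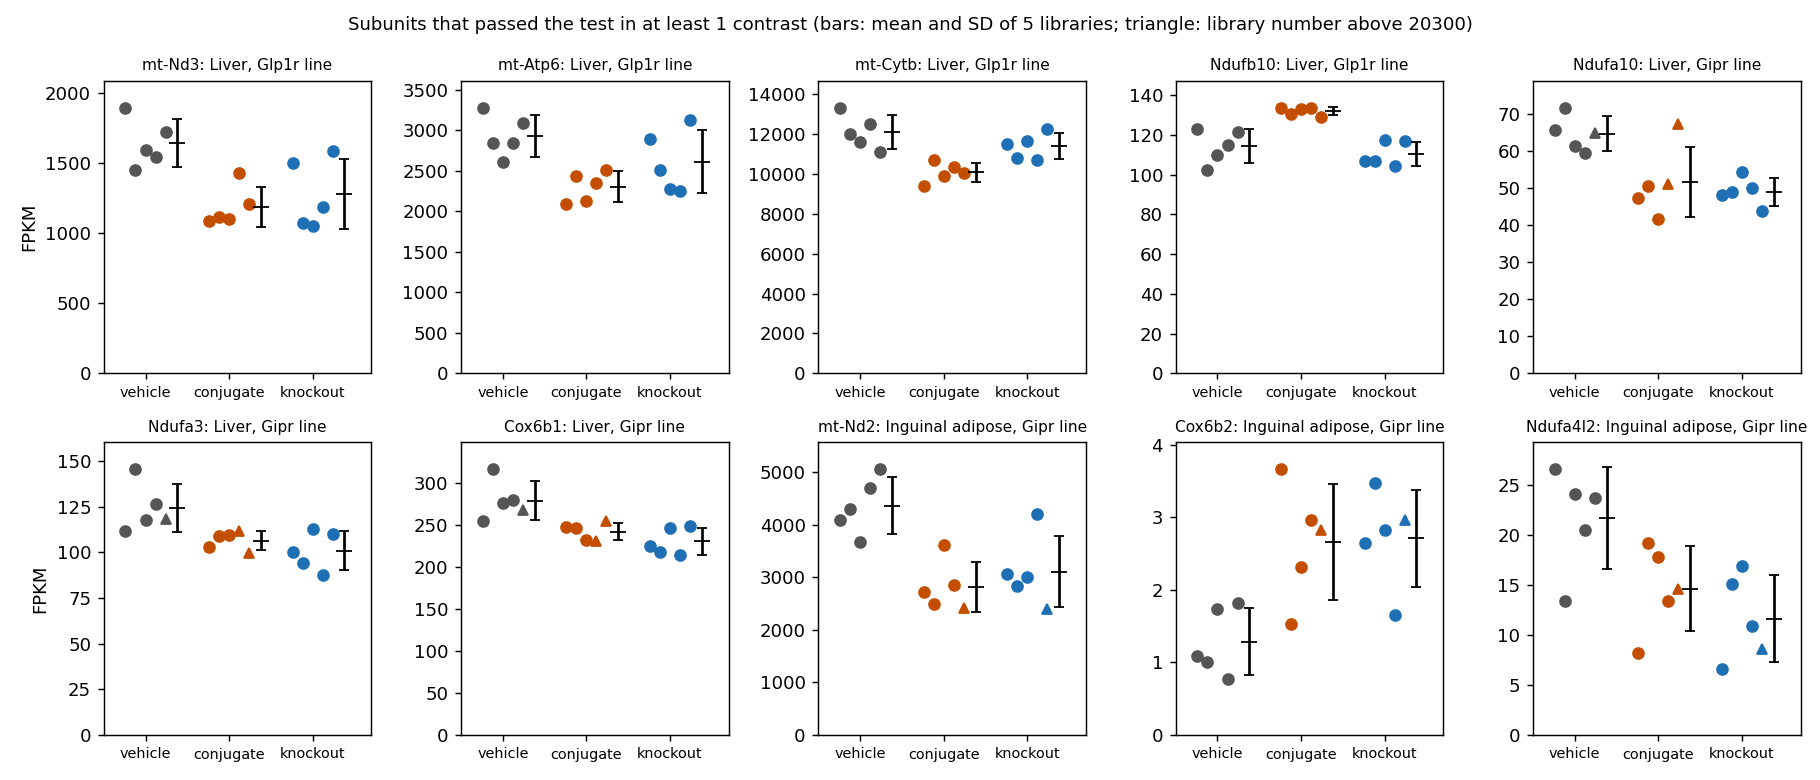
FPKM of subunits that passed in at least 1 comparison, in the table where they passed, by group. Points are libraries, bars are the mean and SD of 5, and triangles mark Gipr-line libraries numbered 20386 to 20391. The conjugate libraries lie below the vehicle libraries for mt-Nd3 in liver of the Glp1r line (1085 to 1430 against 1454 to 1897 FPKM), and the groups overlap for Cox6b2 and Ndufa4l2 in adipose tissue of the Gipr line.

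In adipose tissue of Glp1r floxed mice given the conjugate, none of 80 nuclear subunits and none of 13 mitochondrial genes passed in limma, where 3.39% of 12686 genes did, 2.31% higher and 1.08% lower. No subunit had groups without overlap, against 4.51% of all genes. Only 1 nuclear subunit and no mitochondrial gene had an unadjusted p under 0.05, against 17.9% of all genes. That subunit was Cox6a2, with 0.437, 1.98, 1.11, 4.03 and 1.67 FPKM in vehicle libraries and 0.377, 0.302, 0.198, 0.408 and 1.04 FPKM in conjugate libraries (-0.86 ± 0.30, adjusted p = 0.131). Its groups overlapped, and summed skeletal muscle markers, with 9 markers in the list, ranged from 8.93 to 491.5 FPKM in vehicle and from 12.3 to 47.8 FPKM in conjugate libraries. With the skeletal muscle score as a term the difference was -0.66 ± 0.21 (limma, adjusted p = 0.105). Next by p came mt-Atp8 (-0.57, limma, adjusted p = 0.306) and Cox6b2 (0.37, adjusted p = 0.312). The nuclear median was -0.04, the mitochondrial median -0.16 with 11 of 13 negative, and the median of all genes 0.05.

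Libraries rich in B cell markers changed that comparison. The 6 B cell markers, all detected, summed to 431 to 761 FPKM in vehicle replicate 2 and knockout replicates 1 and 3 and to 1.99 to 8.94 FPKM in the other 12 libraries. The nuclear subunits summed to 8902, 9830 and 10890 FPKM in these 3 libraries and to 9596 to 15160 FPKM in the others, and adipocyte markers to 11570 to 18660 FPKM against 17770 to 28310 FPKM. Without these 3 libraries, a choice made after seeing the data, 11 nuclear subunits fell and 69 did not pass, with none higher, and 2 mitochondrial genes fell. Of all 12686 genes 20.4% were then called, 14.7% higher and 5.74% lower. The nuclear subunits were Atp5g3, Atp5o, Atp5md, Atp5pb and Atp5d of ATP synthase, Ndufb6, Ndufb3, Ndufa11 and Ndufc1 of complex I, Uqcrfs1, the Rieske iron-sulphur protein of complex III, and Cox6b1.

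For Atp5g3, whose ring subunit is the same mature protein as that of Atp5g1, vehicle libraries held 471, 282, 557, 477 and 439 FPKM and conjugate libraries 393, 419, 411, 378 and 280 FPKM. Vehicle replicate 2, the lowest vehicle value, is the library rich in B cell markers, and every other vehicle library was above every conjugate library (-0.38 without the 3 libraries). For Atp5o the vehicle libraries held 221, 147, 286, 230 and 223 FPKM and the conjugate libraries 196, 198, 193, 187 and 149 FPKM, with the same library lowest (-0.37 ± 0.10 without the 3 libraries, limma, adjusted p = 0.0265). For mt-Nd2, a core subunit of the complex I membrane arm, vehicle libraries held 5948, 3532, 6940, 6990 and 6719 FPKM and conjugate libraries 4565, 5412, 4006, 4074 and 3332 FPKM. Again replicate 2 was the only vehicle library among the conjugate values, and the difference without the 3 libraries was -0.65 (limma, adjusted p = 0.0134), with -0.54 for mt-Nd1 (adjusted p = 0.0197). With the B cell score as a term in place of leaving libraries out, 7 nuclear subunits fell, Cox6b2 rose (0.46) and 3 mitochondrial genes fell, beside 21.1% of all genes called, 15.4% higher and 5.71% lower. Conjugate replicate 5, the lowest conjugate library for all 3 of these genes, also stood apart: its 6 macrophage markers summed to 1961 FPKM, against 278.8 to 392.8 FPKM in the other conjugate libraries, and its adipocyte markers to 17770 FPKM, against at least 25210 FPKM. Without it and the 3 libraries rich in B cell markers, also a choice made after seeing the data, 11 nuclear subunits fell, Ndufa5 of complex I rose and 2 mitochondrial genes fell, beside 28.1% of all genes called, 20.2% higher and 7.84% lower. The differences were then -0.28 for Atp5g3, -0.30 for Atp5o and -0.57 for mt-Nd2. Atp5pb and Ndufc1 no longer passed, while Atp5mpl and Ndufa8 did. With vehicle replicate 2 alone left out and the knockout libraries kept, no subunit passed.

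**Figure D4:**
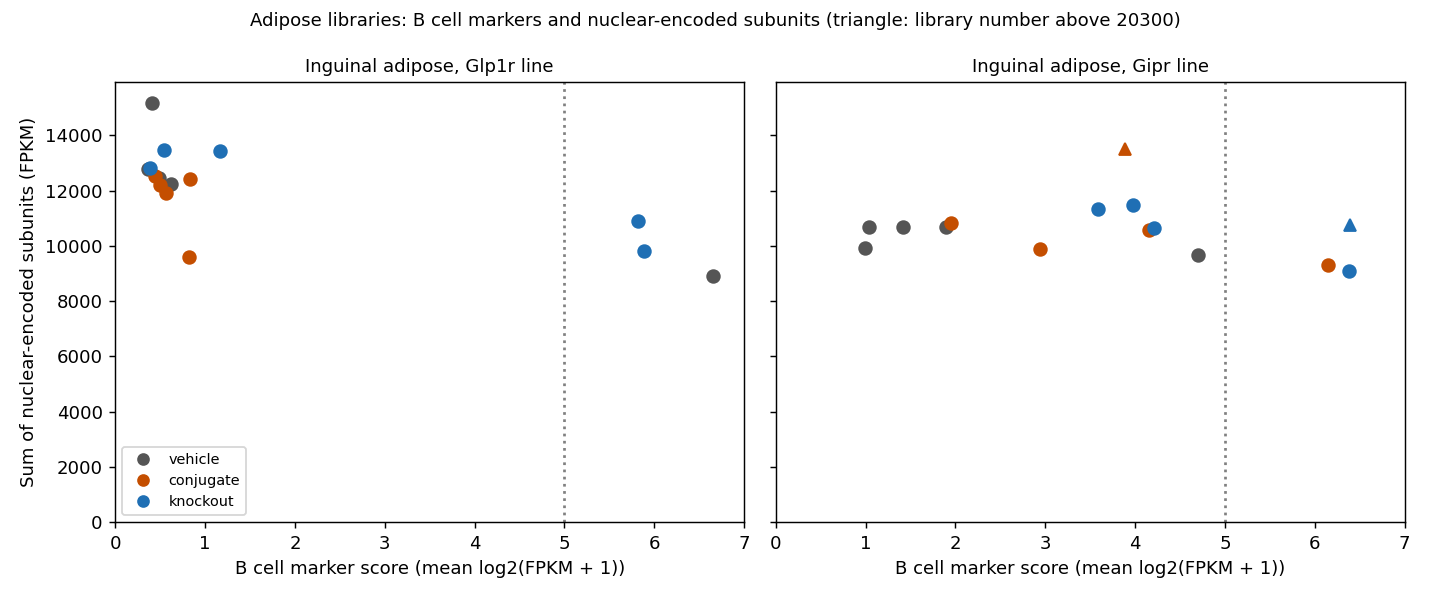
Summed FPKM of nuclear subunits against the B cell marker score, the mean log2(FPKM + 1) of 6 markers, in the adipose libraries of each line. Points are libraries by group, the dotted line is a score of 5 and triangles mark libraries numbered 20390 and 20391. In the Glp1r line the 3 libraries above 5 hold 8902 to 10890 FPKM and the other 12 hold 9596 to 15160 FPKM.

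For the Glp1rWnt1-/- knockout in adipose tissue, no subunit passed in limma and none had an unadjusted p under 0.05. Of all 12686 genes 0.0% were called and 593 (4.67%) reached that unadjusted p. Groups without overlap were found for 1.06% of all genes and for no subunit. The smallest p were those of Ndufa4l2 (0.31 ± 0.19), mt-Atp6 (0.35 ± 0.24) and Cox6b2 (0.27 ± 0.18), each with an adjusted p of 0.983. The medians were -0.02 for nuclear and 0.03 for mitochondrial genes, against 0.04 for all genes.

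In adipose tissue of Gipr floxed mice given the conjugate, 1 of 80 nuclear subunits rose and 1 of 13 mitochondrial genes fell, and the rest did not pass. Of 13604 genes 7.02% were called in limma, 4.26% higher and 2.76% lower. The nuclear subunit was Cox6b2, with 1.08, 1.01, 1.73, 0.778 and 1.82 FPKM in vehicle libraries and 3.67, 1.53, 2.31, 2.97 and 2.82 FPKM in conjugate libraries. Conjugate replicate 2 lay within the vehicle range, so the groups overlapped (0.67 ± 0.18, limma, adjusted p = 0.0409). The mitochondrial gene was mt-Nd2, with 4086, 4301, 3664, 4692 and 5056 FPKM in vehicle libraries and 2721, 2482, 3612, 2844 and 2404 FPKM in conjugate libraries. Here no library overlapped (-0.64 ± 0.18, limma, adjusted p = 0.0421).

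Further mitochondrial genes were low in the same libraries without passing. For mt-Nd1, another core subunit of the complex I membrane arm, vehicle libraries held 5384, 5668, 4906, 5653 and 5872 FPKM and conjugate libraries 3873, 3183, 4841, 4015 and 3105 FPKM (-0.55 ± 0.18, limma, adjusted p = 0.0862), without overlap. For mt-Co1 vehicle libraries spanned 13862 to 14932 FPKM and conjugate libraries 9453 to 13302 FPKM, again without overlap (-0.36, adjusted p = 0.290). Thus 3 of 13 mitochondrial genes were lower without overlap, against 4.06% of all genes. The 13 genes took 9.87% to 10.9% of FPKM in vehicle and 6.30% to 9.33% in conjugate libraries, and the ratio of mitochondrial to nuclear sums was 4.41 to 5.35 against 2.41 to 4.40, neither with overlap. The mitochondrial median was -0.35 with 12 of 13 negative, while the nuclear median was 0.09 and that of all genes 0.11. Sdhb was the 1 nuclear subunit higher without overlap, at 68.2 to 84.2 FPKM in vehicle and 85.7 to 126 FPKM in conjugate libraries (0.33, adjusted p = 0.145), against 7.51% of all genes.

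Several library features moved with this comparison. Summed B cell markers were 7.47 to 179 FPKM in vehicle and 21.2 to 542 FPKM in conjugate libraries, and skeletal muscle markers, 9 of 9 detected, 49.2 to 650 and 40.3 to 1592 FPKM. No vehicle library and 1 conjugate library was numbered 20390 or later. With the B cell score, the muscle score, the library numbers or estimated depth as a term, or without the later-numbered libraries, neither subunit passed, although the differences stayed at -0.57 to -0.63 for mt-Nd2 and 0.61 to 0.67 for Cox6b2 in these fits. Without conjugate replicate 1 and the other libraries with a B cell score above 5, mt-Nd2 passed (-0.63) and Cox6b2 did not (0.58). The call of Cox6b2 was lost in 7 of 10 fits that left out 1 library (adjusted p 0.0145 to 0.0996) and that of mt-Nd2 in 8 (0.0345 to 0.104).

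In the GiprSyn-/- knockout, Cox6b2 rose and Ndufa4l2 fell in adipose tissue, 78 of 80 nuclear subunits did not pass and no mitochondrial gene passed. Of 13604 genes 12.3% were called in limma, 6.61% higher and 5.67% lower, so the share of subunits called was below the background. No subunit had groups without overlap, against 11% of all genes. For Cox6b2 the knockout libraries held 2.65, 3.48, 2.83, 1.65 and 2.96 FPKM, with 1 inside the vehicle range (0.70 ± 0.18, limma, adjusted p = 0.0252). For Ndufa4l2 vehicle libraries held 26.6, 13.4, 24.1, 20.5 and 23.7 FPKM, knockout libraries 6.55, 15.1, 16.9, 10.8 and 8.59 FPKM, and conjugate libraries 8.19, 19.2, 17.8, 13.3 and 14.6 FPKM. Vehicle replicate 2 lay within the knockout range (-0.88 ± 0.26, limma, adjusted p = 0.0401). Next by p came Ndufb11, a membrane-arm subunit of complex I, with 51.0 to 66.3 FPKM in vehicle and 64.3 to 93.6 FPKM in knockout libraries (0.41 ± 0.14, limma, adjusted p = 0.0715).

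Of the mitochondrial genes in that knockout 1 had an unadjusted p under 0.05, against 31.1% of all genes, and 8 of 13 were negative with a median of -0.05. The nuclear median was 0.04 and that of all genes 0.09. B cell markers summed to 88.9 to 627 FPKM in the knockout libraries and the score was above 3 in all 5 of them, so no fit without such libraries could be made at that limit. Without the libraries with a score above 5, or with that score as a term, neither Cox6b2 nor Ndufa4l2 passed. In these fits Cox6b2 stayed at 0.67 and 0.60, while Ndufa4l2 went to -0.55 and -0.19. Leaving out 1 library at a time ended the call of Cox6b2 in 5 of 10 fits (adjusted p 0.012 to 0.0677) and that of Ndufa4l2 in 7 (0.0216 to 0.104).

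Set side by side, the mitochondrial genes were below vehicle with the conjugate in 12, 13, 11 and 12 of 13 cases in the 4 tables (liver Glp1r, liver Gipr, adipose Glp1r, adipose Gipr), and in 11, 11, 4 and 8 of 13 in the knockouts. Of all genes, 46.8%, 56.4%, 40.1% and 33.1% were below vehicle with the conjugate, and 67%, 73.8%, 38.4% and 38.7% in the knockouts. Rescaled by the median ratio, the mitochondrial counts were 12, 13, 11 and 13 with the conjugate and 10, 6, 7 and 11 in the knockouts. Both comparisons of a table share its vehicle libraries, and the 13 genes share their precursor transcripts. Genes differed in how low they went: with the conjugate, mt-Nd2 differed by -0.03 and -0.10 in the liver tables and by -0.47 and -0.64 in adipose tissue, and mt-Nd3 by -0.47 and -0.40 in liver and by -0.15 and -0.06 in adipose tissue. This contrast between tissues was not tested. An interaction term asked for every gene whether the conjugate effect differed between lines. No nuclear or mitochondrial subunit passed in either tissue, and neither did any other gene. At an unadjusted p under 0.05 there were 9 nuclear subunits and no mitochondrial gene in liver (624 of 10640 genes in all), and 2 nuclear subunits and no mitochondrial gene in adipose tissue (436 of 12541), with smallest adjusted p of 0.819 and 0.937 in limma.

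Within the Gipr line, the level of a subset of nuclear subunits followed the library number. Uqcrq, a small subunit of complex III, held 91.9, 111, 101, 120 and 354 FPKM in the vehicle livers, 82.1, 120, 86.9, 285 and 308 FPKM in the conjugate livers and 96.2, 77.3, 88.9, 97.7 and 93.1 FPKM in the knockout livers. The 3 high values are the 3 livers numbered 20386 to 20388. Among adipose libraries of that line it held 55.5, 29.9, 54.1, 30.1 and 57.9 FPKM in vehicle, 35.2, 46.8, 46.6, 35.0 and 155 FPKM in conjugate and 29.95, 58.7, 40.9, 39.6 and 119 FPKM in knockout libraries, with the libraries numbered 20390 and 20391 highest. In the Glp1r line it lay at 262 to 365 FPKM in every liver library and at 95.8 to 205 FPKM in adipose tissue.

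Of the 4 groups with both later-numbered and other libraries, liver conjugate held 2 later-numbered ones and the rest 1 each. The 1 in the adipose knockout group is also among those with a B cell score above 5. Within the set, 7 nuclear subunits were at least 1 log2 unit higher in later-numbered than in other libraries within 3 or 4 groups. These 7 were picked by the shift itself, and no share of all genes is given here for that rule. They were Uqcrq (mean difference 1.70), Ndufs7 (1.25), Atp5d (1.22), Uqcr11 (1.20), Cox8a (1.20), Ndufb2 (1.19) and Ndufc1 (1.16). Ndufs7 carries the last iron-sulphur cluster of complex I and Atp5d is the delta subunit of the ATP synthase stalk. Others did not shift upward, among them Uqcrc2, a core protein of complex III (-0.24), and Ndufs1, the largest complex I subunit (-0.25). In all, 6 of 79, 8 of 79, 11 of 80 and 5 of 80 nuclear subunits were at least 1 unit higher in liver vehicle, liver conjugate, adipose conjugate and adipose knockout libraries. Those are 7.59%, 10.1%, 13.8% and 6.25%, against 1.67%, 1.93%, 2.15% and 6.4% of all genes. The mitochondrial genes had median differences of -0.28, -0.36, -0.22 and -0.35 in the same order of groups. The medians of all nuclear subunits were 0.10, 0.17, 0.25 and -0.10, and those of all genes 0.01, 0.02, -0.06 and 0.08.

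The pattern recurred across tissues. Over the 78 nuclear subunits that passed in all tables, the shift in the liver conjugate group and that in the adipose conjugate group, which share no library, had a Pearson correlation of 0.914, and liver conjugate and adipose knockout one of 0.938. Genes are not independent replicates, so these are descriptions. The shift also ran with base composition: across the 74 of 78 subunits with a GENCODE transcript, its correlation with transcript GC content was 0.455 (Spearman 0.494), against 0.585 over 9635 of all genes, and with transcript length -0.04. The 7 shifting subunits had a median GC content of 58.6%, against 52.2% in 67 others, but 3 of the 7 lay below that value: Uqcrq, which shifted most, at 50.2%, Ndufb2 at 49.01% and Ndufc1 at 47.9%. Vehicle libraries of the Glp1r line differed from the lower-numbered vehicle libraries of the Gipr line in the same direction, by 1.62 in liver and 1.78 in adipose tissue for Uqcrq. What the library numbers stand for is not given in the sources used here, and no liver knockout and no adipose vehicle library of the Gipr line carries a later number.

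**Figure D5:**
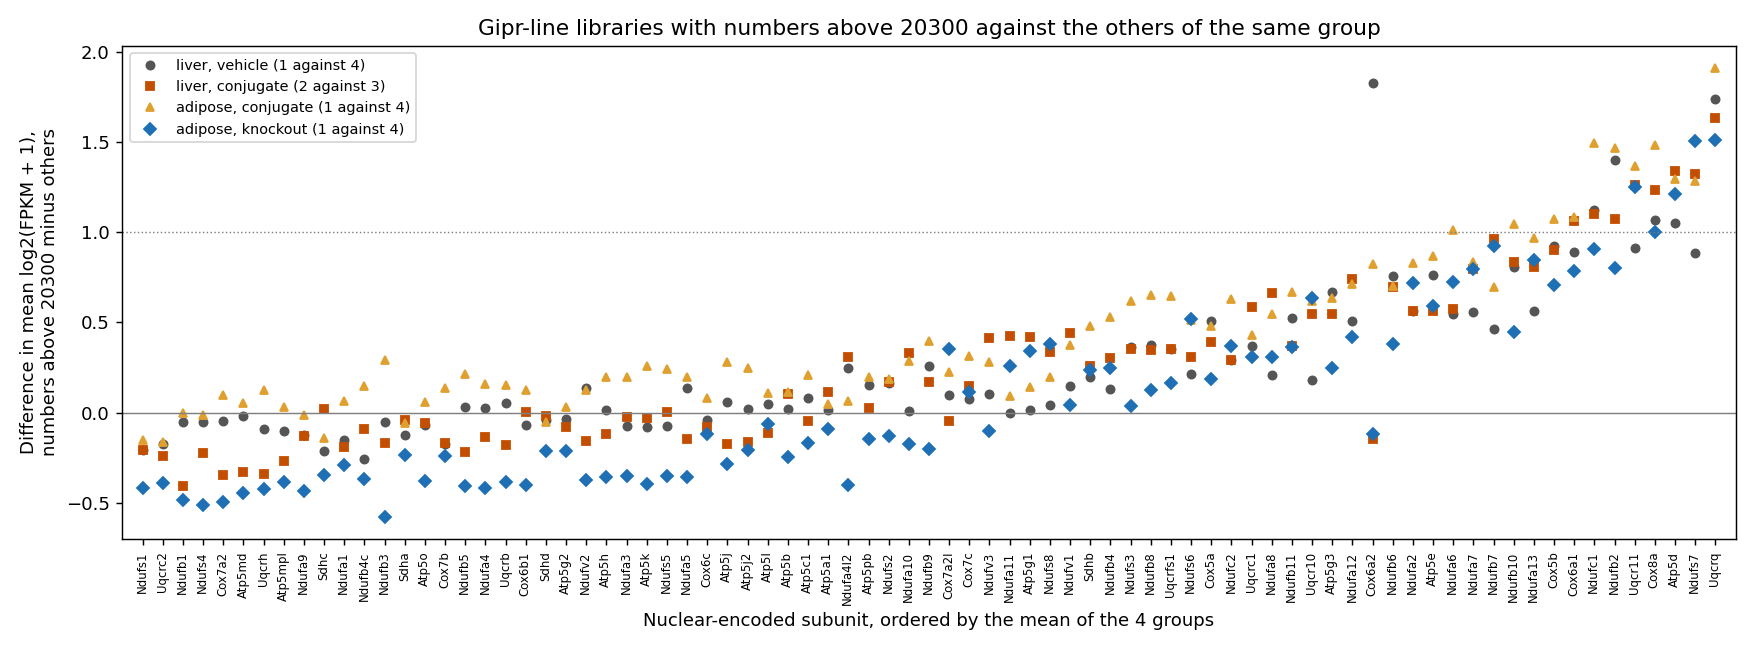
Difference in mean log2(FPKM + 1) between Gipr-line libraries numbered 20386 to 20391 and the other libraries of the same group, for 79 nuclear subunits ordered by the mean over groups. Points are genes by group (liver vehicle, liver conjugate, adipose conjugate, adipose knockout, with 1, 2, 1 and 1 later-numbered libraries). The dotted line is a difference of 1. Uqcrq stands highest, with a mean of 1.70.

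In liver of the Gipr line, the level of the muscle isoform Cox6a2 varied within groups. It held 1.32, 0.689, 0.242, 0.0899 and 4.39 FPKM in vehicle, 0, 6.58, 0.674, 3.31 and 0.0282 FPKM in conjugate and 2.77, 0.0688, 0.155, 0.0458 and 1.14 FPKM in knockout libraries. No group was consistently high. Summed skeletal muscle markers, 9 of 9 detected, ranged over 0.795 to 183, 0.446 to 367 and 1.78 to 132 FPKM in the same groups, and did not exceed 0.813 FPKM in liver of the Glp1r line, where none of 9 markers reached 1 FPKM. Their part in the level of Cox6a2 was not tested.

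Genes that assemble and feed the complexes were followed as lists of their own, with the same test. The shares of all genes called, set beside the counts here, are those given above: 10.4% in the Glp1r liver with the conjugate, 4.34% in the Gipr liver with the conjugate, 10.4% in the GiprSyn-/- liver, 7.02% in the Gipr adipose conjugate group and 12.3% in the GiprSyn-/- adipose tissue. Of the assembly factors, 1 fell among 45 tested in liver of both lines with the conjugate, and in each case it was Acad9, a complex I assembly factor (-0.27 in the Glp1r line and -0.36 in the Gipr line). That is 2.22% of the list, below the share of all genes in each table. It also fell in the GiprSyn-/- liver (-0.51, with Cox19 and Sco1, which serve copper delivery to complex IV), in the Gipr adipose conjugate group (-0.48) and in the Gipr adipose knockout (-0.44). In those adipose comparisons Sdhaf3, an assembly factor of complex II, fell by 0.38 in each, while Surf1, for complex IV, rose with the conjugate (0.46) and Sdhaf1, for complex II, rose in the knockout (0.41). The 3 called of 45 in the GiprSyn-/- liver (6.67%) and the 3 of 46 in each adipose comparison (6.52%) were likewise no more than the share of all genes.

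Some enzymes of the citrate cycle and of pyruvate dehydrogenase, which supply the electrons, fell in both liver tables. In liver 4 of 16 fell, none rose and 12 did not pass with the conjugate in each line (25%, against 10.4% and 4.34% of all genes), among them citrate synthase Cs (-0.29 and -0.38) and Suclg2 of succinyl-CoA ligase (-0.32 and -0.44). In the GiprSyn-/- liver 7 of 16 fell (43.8%, against 10.4%), led by Dlat, the E2 subunit of pyruvate dehydrogenase (-0.66), Cs (-0.62) and Suclg2 (-0.60). The subunit counts of that comparison depended on the scaling, and this list was not fitted under the other scalings. Among adipose groups of the Gipr line, Dlat (-0.72) and Cs (-0.38) fell with the conjugate, and in the knockout Dlat fell (-0.69) and Suclg2 rose (0.46), so 2 of 16 were called in each, against 7.02% and 12.3% of all genes. Etfdh, which passes electrons from fatty acid oxidation to ubiquinone, fell in liver with the conjugate in both lines (-0.23 and -0.33), in the GiprSyn-/- liver (-0.38) and in the Gipr adipose conjugate group (-0.47). Cycs, cytochrome c, fell in the adipose conjugate group (-0.38) and the adipose knockout (-0.44) of the Gipr line. In those groups Coq8a, a kinase-like protein needed for ubiquinone synthesis, rose by 0.49 and 0.47, and in the knockout Coq2, a prenyltransferase of that pathway, rose (0.26) and Cox4i2, the hypoxia-linked isoform of Cox4i1, fell (-0.50). Of this list of 20 further subunits and carriers, 1 rose and 2 fell in the adipose conjugate group (15%, against 7.02% of all genes). In the adipose knockout 2 rose and 2 fell (20%, against 12.3%). In liver with the conjugate 2 of 18 fell in the Glp1r line (11.1%, against 10.4%) and 2 of 19 in the Gipr line (10.5%, against 4.34%). In the GiprSyn-/- liver 3 of 19 fell (15.8%, against 10.4%), and none of the list rose in these livers.

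Genes for mitochondrial DNA upkeep and expression were called about as often as all genes in liver of the Glp1r line with the conjugate (11.1% against 10.4%). There 2 of 27 rose, Fastkd5 (0.29) and the helicase Twnk (0.28), and Mterf2 fell (-0.34), which was also the 1 gene called in the Gipr line (-0.63). In the Gipr adipose knockout 5 of 28 rose and none fell (17.9%, against 12.3%), among them Polg2, the accessory subunit of the mitochondrial DNA polymerase (0.63), Mterf1a (0.59) and Mterf1b (0.49). Of 8 transcriptional regulators tested 1 was called in each of 2 comparisons: Nrf1 rose in the Glp1r liver with the conjugate (0.30), and Ppargc1a, the coactivator PGC-1 alpha, rose in the Gipr adipose knockout (0.61), from 0.774 to 1.76 FPKM. Of 78 mitochondrial ribosomal protein genes, 5 rose and 1 fell in the Glp1r liver with the conjugate, 1 and 3 fell in the Gipr liver with the conjugate and in the knockout, and 3 rose in the Gipr adipose knockout. None of these 4 counts exceeded the share of all genes, at 7.69%, 1.28%, 3.85% and 3.85%. No gene of these lists was called in adipose tissue of the Glp1r line or in either tissue of the Glp1rWnt1-/- knockout. The depth difference in the Glp1r liver and the B cell, muscle and library number differences in the Gipr line, given above, move with these lists too. Exocrine pancreas markers also varied within the groups of the Gipr liver. The part of these features in the lists was not tested, and no list was fitted under the other scalings.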

How the data were processed

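Poly(A) RNA of 60 tissue samples had been sequenced as stranded libraries on a NovaSeq X, per the labels' protocols, and RNA had been extracted with either of a pair of homogenisers and clean-ups. The deposited values are FPKM, which the authors computed with RSEM per the submitters' processing notes. Not given in the sources used here are the RSEM version, aligner, genome build, annotation and use of strand. The tables hold no counts, so depth was estimated from their lowest values, using 6496 single-transcript genes of 1500 to 6000 bases in a GENCODE reference, and serves only to compare libraries. Groups came from the titles.

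Values were analysed as log2(FPKM + 1), a scale that understates changes of low genes, with limma 3.58.1 in R 4.3.3. Each table was fitted with its 3 groups and a variance trend, over genes reaching 1 FPKM in at least 5 libraries. Two-sided tests were adjusted by Benjamini-Hochberg over those genes and called under 0.05. An interaction fit over both lines of a tissue compared conjugate effects. Summaries used Python 3.11.15, numpy 2.4.6, pandas 2.3.3 and matplotlib 3.10.9. Named subunits are, per comparison, every called mitochondrial gene, up to 8 called nuclear ones, or the 3 with the smallest p where fewer than 3 were called, and up to 3 called genes of each further list. Subunits named for groups without overlap, for the library numbers or from fits without B cell rich libraries were chosen after their values were seen. The members and lists were chosen with earlier results of these data known. Apart from the interaction fit each table was fitted on its own, so levels set across tables have no test. On simulated data built from each table's own means and spread, 76% to 93% of genes changed 2-fold and 45% to 90% of those changed 1.5-fold were recovered, and unchanged genes made up 4.03% to 6.25% of calls. Alternatives covered the pseudocount, filters, scalings, the replicate block, marker scores, library numbers and each library left out. Terms for depth and library numbers and the B cell limit of 5, the macrophage limit of 7 and the B cell term were added after the data were seen.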

Additional observations from a re-analysis of the deposited data

Results flagged for a closer look

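In groups of 5 libraries, 231 sets of values (summed levels and single subunits) were screened for a library whose gap to its nearest neighbour exceeded Dixon's 95% limit of 0.71 of the range. Of these 16 (6.93%) stood out, while chance alone flags about 1 in 20. The mitochondrial genes made up most of them, and also most of the sets screened. Every mitochondrial gene was screened in every group, while nuclear subunits were screened only in tables where they were named. In liver of the Glp1r line mt-Atp8 was 5752 FPKM in conjugate replicate 2 (others 7742 to 8036), mt-Co2 691 FPKM in vehicle replicate 1 (others 496 to 527) and 484 FPKM in knockout replicate 4 (others 653 to 708), mt-Co3 1171 FPKM in vehicle replicate 4 (others 1431 to 1495) and mt-Nd2 8561 FPKM in vehicle replicate 1 (others 6982 to 7312). In liver of the Gipr line mt-Atp6 was 2377 FPKM in conjugate replicate 1 (others 1204 to 1446), mt-Co1 16243 FPKM in knockout replicate 5 (others 18755 to 19602), mt-Co3 1825 FPKM in knockout replicate 4 (others 959 to 1209), and vehicle replicate 2 held both mt-Co2 at 2486 FPKM (others 583 to 863) and mt-Nd3 at 988 FPKM (others 718 to 773).

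In adipose tissue of the Glp1r line mt-Atp6 was 1547 FPKM in knockout replicate 3 (others 1977 to 2127) and mt-Nd1 was 4196 FPKM in vehicle replicate 2 (others 6524 to 7366), both libraries with a B cell score above 5. Conjugate replicate 5 of that table had the lowest nuclear sum of its group, 9596 FPKM (others 11900 to 12520), and the highest Cox6a2, 1.04 FPKM (others 0.198 to 0.408), and its macrophage markers summed to 1961 FPKM (others 278.8 to 392.8). In adipose tissue of the Gipr line Ndufb11 was 103 FPKM in conjugate replicate 5 (others 60.1 to 68.4), the later-numbered library of its group, and mt-Atp6 was 763 FPKM in vehicle replicate 5 (others 1236 to 1384).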

How the results depend on the processing

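The counts of called subunits were small and most moved with the settings, some of which were chosen after seeing the data (depth and library number terms, B cell limit of 5, B cell term, macrophage limit of 7). With 1 library left out at a time, nuclear and mitochondrial counts ranged over 0 to 2 and 0 to 3 in the Glp1r liver with the conjugate, 0 to 2 and 0 to 3 in the Gipr liver with the conjugate, 0 to 4 and 0 in its knockout, 0 to 1 and 0 to 1 in the Gipr adipose conjugate group, and 0 to 2 and 0 to 1 in its knockout. They were 0 throughout in the Glp1rWnt1-/- liver and in both Glp1r adipose comparisons. In the Glp1r liver with the conjugate, the nuclear count of 1 was 0 with the median ratio, either common sum or the depth term, and the mitochondrial count of 3 was 1 with the median ratio and 0 with no filter or the depth term. In the Gipr liver with the conjugate, the nuclear count of 0 was 1 with the common sum of rows other than mitochondrial genes, 1 with the library number term and 2 without the later-numbered libraries. In its knockout, the nuclear count of 3 was 1 with no filter, 0 with the median ratio, 19 and 28 with the common sums, 7 in a fit of only the 2 groups, 1 without later-numbered libraries and 5 with the pancreas term (14.1%, 9.78% and 12.6% of all genes). In the Glp1r adipose conjugate group, 11 nuclear and 2 mitochondrial genes passed without B cell scores above 3 or above 5, which leave out the same 3 libraries, 8 and 3 with the B cell term, and 12 and 2 without the B cell rich libraries and the library with a macrophage score above 7. In the Gipr adipose conjugate group, the nuclear count of 1 was 0 with no filter, a mean of at least 5 FPKM, the median ratio, the common sum of rows other than mitochondrial genes, either B cell limit, the B cell, muscle, depth and number terms or without later-numbered libraries, and the mitochondrial count of 1 was 0 with no filter, the B cell limit of 3, those 4 terms or without later-numbered libraries. In its knockout, the nuclear count of 2 was 0 with no filter, without later-numbered libraries, with the B cell limit of 5 and with the muscle and B cell terms, and 1 with the mean of 5 FPKM, the number term and the depth term, while the mitochondrial count of 0 was 1 with the median ratio. Of 548 alternatives for 25 results, each a named subunit in 1 comparison, 411 kept direction and side of the threshold. A further 127 lost the call, 10 gained it and 0 changed direction. The 411 include results that were not called and stayed so. Among called results, the fewest losses were 6 of 19 alternatives, for mt-Nd3 in the Glp1r liver with the conjugate. The largest share was 17 of 24, for Cox6b2 in the Gipr adipose conjugate group. The cause of these moves was not tested. The fit of the Gipr adipose knockout without B cell scores above 3 was not run, because all 5 knockout libraries exceed it.

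Replicate numbers did not pair the libraries: deviations of same-numbered libraries correlated between -0.84 and 0.57, not all above 0.1. With the replicate number as a block, the 3 nuclear subunits of the GiprSyn-/- liver became 0, the 3 mitochondrial genes of the Glp1r liver with the conjugate became 2 and the 2 nuclear subunits of the Gipr adipose knockout became 3. The values rest on FPKM without counts, so no counting error can be given, and subunits near 1 FPKM (Cox6b2, Cox6a2 and, in liver, Ndufa4l2) are the least precise.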

Other observations

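Pairs of mitochondrial genes differed in how closely they moved between libraries. The ratio of mt-Co2 to mt-Co1, whose transcripts come from the same precursor, ran from 0.0163 to 0.0402 in adipose tissue of the Glp1r line. In liver of the Gipr line it ran from 0.0249 to 0.129 with a median of 0.0336. Vehicle replicate 2 there held mt-Co2 at 2486 FPKM (others of its group 583 to 863). The ratio of mt-Atp8 to mt-Atp6, which share bases, ran from 1.21 to 6.49 in adipose tissue of the Gipr line. Depending on the table, the Pearson correlation of log2 values ran from -0.0259 to 0.8 for mt-Co2 with mt-Co1. It ran from -0.0805 to 0.514 for mt-Atp8 with mt-Atp6 and from 0.506 to 0.92 for mt-Nd4l with mt-Nd4. For mt-Nd6, which is transcribed from the other strand beside the end of mt-Nd5, the ratio to mt-Nd5 was 0.852 to 1.71. That range covers all 60 libraries, with a median of 1.03. Not given in the sources used here is whether the deposited values were counted by strand. Whether fragments of these neighbours were kept apart is therefore not known. The median within-group SD on the log2 scale was larger for mitochondrial than for nuclear subunits in every table: 0.158 against 0.0862 in liver and 0.342 against 0.231 in adipose tissue of the Glp1r line, and 0.308 against 0.183 and 0.287 against 0.226 in the Gipr line. Genes with a mean of at least 20 FPKM had medians of 0.110, 0.211, 0.191 and 0.219 in the same order.

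Among the subunits that shifted with the library number, Ndufs7 also varied among lower-numbered adipose libraries of the Gipr line. It held 42.9, 18.0, 44.5, 22.3 and 53.0 FPKM in vehicle, 53.0, 58.1, 54.7, 32.3 and 119 FPKM in conjugate and 15.2, 68.2, 51.7, 13.8 and 85.9 FPKM in knockout libraries, so the lowest values were vehicle replicates 2 and 4 and knockout replicates 1 and 4.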
